A study of Sus scrofa with 23 samples.

Results

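Collagens, laminins, integrins and matrix-cleaving proteases with their inhibitors form the extracellular matrix and its connection to cells. They were followed here across late gestation, birth and growth of the pig. Members were the genes whose single platform symbol began with COL or MMP and a digit, with LAMA, LAMB or LAMC and a digit, or with ITGA, ITGB, ADAMTS or TIMP. This gave 46 members of 6765 genes with a single symbol: 15 collagen chains, 3 laminin chains, 12 integrin chains, 3 ADAMTS proteases, 8 matrix metalloproteinases (MMPs) and 4 tissue inhibitors of metalloproteinases (TIMPs). The remaining match, ITGB1BP2 (melusin), is a muscle protein that binds an integrin tail and is not an integrin chain. Of the members, 22 had more than 1 probe set, and each was then represented by the one whose log2(signal + 16), averaged over the 23 samples, was highest. Choosing by mean linear signal instead changed only the probe set of COL5A1.

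All animals were piglets or pigs born to, or fetuses of, German Landrace gilts on a low-protein gestation diet, so all stages share that diet and diet itself cannot be compared. The stages were 94 dpc (days post conception, before birth) with 5 samples, and 1, 28 and 188 dpn (days post natum, after birth) with 6 samples per stage, as these abbreviations are usually read. The design text gives 3 gilts per stage and the labels name no dam. The 5 or 6 animals of a stage may therefore share a mother, and the p-values, which treat animals as independent, may be too small.

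Every sample is labelled liver, whereas the title of the series names muscle. The 6 measured skeletal muscle markers ranked, by their median, at percentiles 99.68 to 99.97 of an array's probe sets, and the 9 measured hepatocyte markers at 13.8 to 87.0. No level is therefore assigned to a tissue, and liver is used here only as the label. The median signal of the 23 arrays was 121.3 to 169.4. The GAPDH control probe sets for both ends of the transcript gave a 5'/3' ratio between 0.0868 and 0.148 in replicates 2, 4 and 5 at 1 dpn, whereas it lay between 1.09 and 1.29 in the remaining 20, and results that rest on these 3 samples are also given without them. Samples of a stage had a median pairwise correlation of 0.951 at 94 dpc, then 0.905, 0.936 and 0.931 at 1, 28 and 188 dpn.

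Collagens are triple helices of chains that give tissue its tensile strength as fibrils, or form sheets in basement membranes. Laminins are trimers of an alpha, a beta and a gamma chain that organise the basement membrane around muscle fibres, capillaries and epithelia. Integrins are pairs of an alpha and a beta chain that hold cells to both and signal inward. MMPs and ADAMTS proteases cut matrix proteins, and TIMPs block them. In muscle these proteins make up the sheath of each fibre and the connective tissue between fibres, which is laid down in fetal life and remodelled with growth.

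Most of the bright members were highest before birth and lowest at 188 dpn. A test of any difference between the 4 stages (limma's moderated F test, Benjamini-Hochberg adjusted p under 0.05) called 29 of 46 members, 63.0%, against 60.1% of all genes, so the share of members that changed was near the background. Of the 29 called members, 24 (82.8%) had their highest mean at 94 dpc, against 40.0% of all called genes, and 20 (69.0%) had their lowest mean at 188 dpn, against 39.6%. All 10 called collagens, all 3 laminins, both called ADAMTS proteases, both called MMPs and both called TIMPs had their highest mean at 94 dpc. For TIMP1 this was near a tie, as its log2 change at 1 dpn relative to 94 dpc was -0.06 (adjusted p = 0.92). Integrins were mixed, with 5 of 9 called chains highest at 94 dpc. A total of 19 members were dim, with no stage mean above 7.24 on the log2 scale, the median of all probe sets. Of these dim members 5 were called, against 238 of 1391 dim genes among all genes. Of the 27 brighter ones 24 were called, against 3829 of 5374. Brightness was judged by the highest stage mean, so a member could count as brighter through 94 dpc alone, as COL2A1 and COL5A2 did. The split and the calls are therefore not independent. The 5'/3' ratio of the EF1a control probe sets was also highest at 94 dpc: outside the 3 samples of low GAPDH ratio it was 0.908 to 1.08 at 94 dpc, then 0.759 to 0.824, 0.532 to 0.706 and 0.458 to 0.638 at 1, 28 and 188 dpn, where 28 and 188 dpn overlapped. Its part in these results was not tested.

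**Figure D1:**
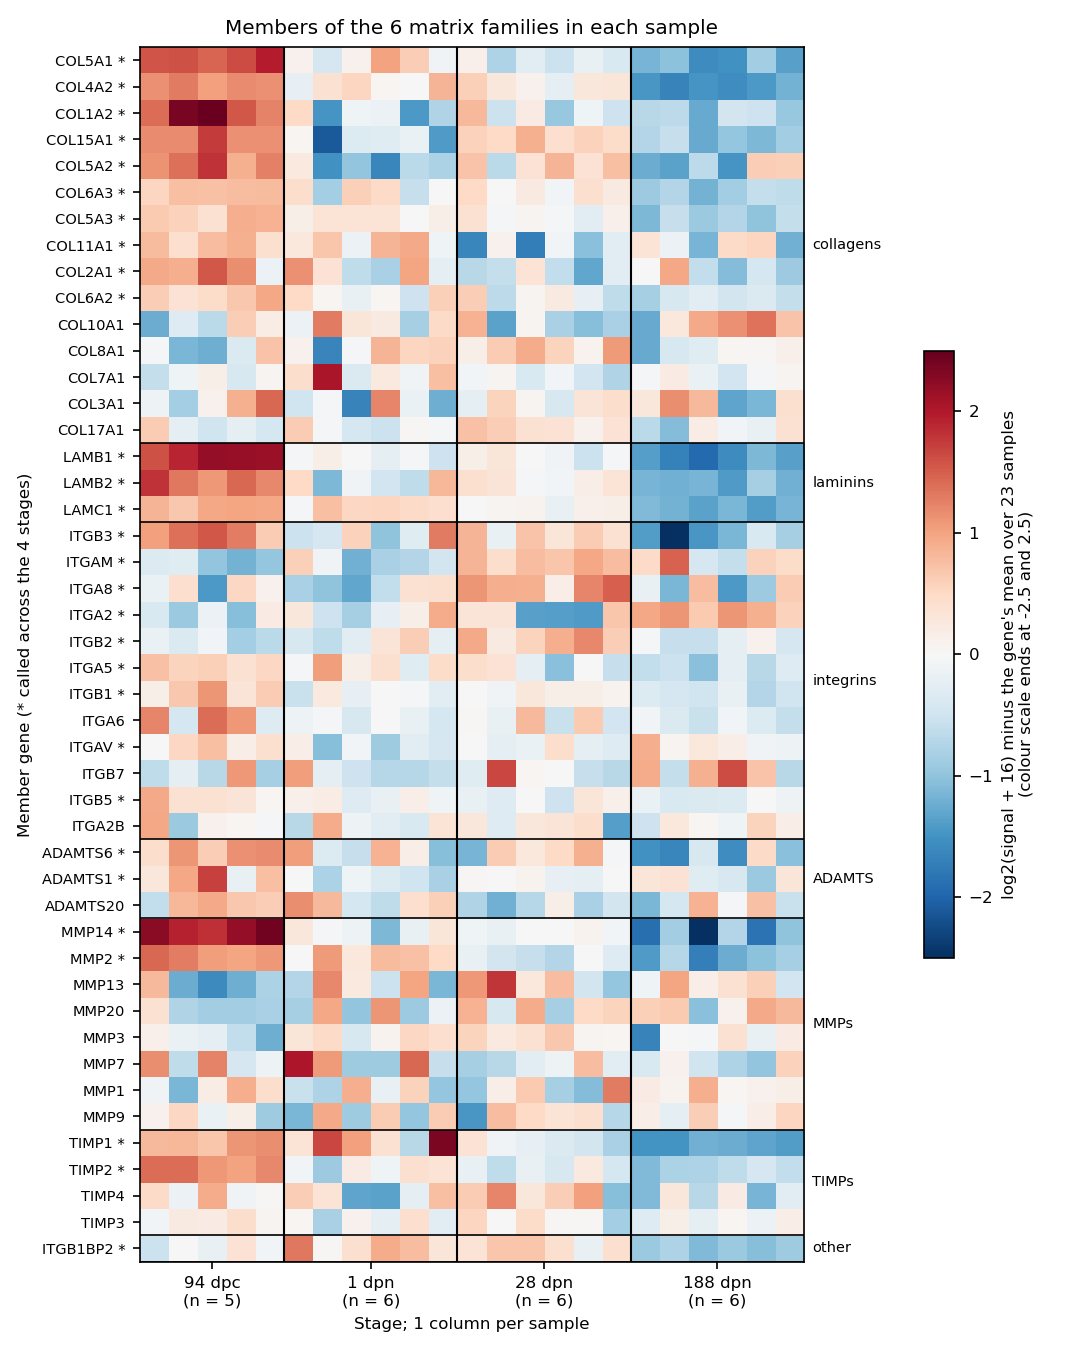
Heat map of the 46 members (rows, grouped by family and ordered within a family by the range of their stage means) in the 23 samples (columns, by stage). Colour is log2(signal + 16) minus the gene's mean over the 23 samples, and an asterisk marks the 29 members called across the stages. Most called collagens and all 3 laminins are red at 94 dpc and blue at 188 dpn, while ITGAM and ITGB2 are red at 28 dpn.

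Far more members fell than rose between 94 dpc and 1 dpn. No stage between these was sampled, so such a change cannot be placed at birth itself. At 1 dpn relative to 94 dpc, 17 of 46 members were lower and 1 was higher, against 19.4% and 13.7% of all genes. The largest falls were those of COL1A2, a chain of fibrillar type I collagen (5.19-fold), MMP14, a membrane-anchored protease (4.81-fold), COL5A2, a chain of fibril-forming type V collagen (4.55-fold), and the laminin chain LAMB1 (4.36-fold). The size of the COL5A2 fall depended on the probe set, as given with its values. The member that rose was ITGB1BP2, and its rise depended on the probe set as well. The median log2 change was -0.44 over the members and -0.06 over all genes. After removal of the 3 samples of low GAPDH ratio, 13 members were lower and 1 was higher, against 18.7% and 14.3% of all genes, and the calls lost were COL5A3, COL6A3, ITGAV and ITGB3. With each array centred on its median, which moved the median change of all genes to 0.22, 10 members were lower and 3 higher, against 11.4% and 22.8% of all genes.

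In the first month of life the share of members that moved was near that of all genes. At 28 dpn relative to 1 dpn, 5 of 46 were higher (10.9%) and 3 lower (6.52%), against 13.5% and 10.6% of all genes. The rises were those of COL15A1, COL5A2, ITGA8, ITGAM and ITGB2, and the falls those of COL11A1, MMP2 and TIMP1. The median log2 change was 0.10 over the members and 0.03 over all genes. When the 3 samples of low GAPDH ratio were left out, COL15A1 and ITGB2 were higher and TIMP1 was lower, and the other 5 calls were lost.

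A second fall came between 28 and 188 dpn. At 188 dpn relative to 28 dpn, 16 members were lower and 1 was higher, against 12.5% and 5.78% of all genes, with a median log2 change of -0.50 against -0.06. The largest falls were those of ITGB3 (3.47-fold), COL4A2 of the basement membrane (3.22-fold), MMP14 (2.90-fold) and COL15A1 (2.81-fold), and the rise was that of ITGA2. All 3 laminin chains fell. The dap control ratio also differed between these stages without overlap, as given above, and its part was not tested.

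More members were lower over the whole period. At 28 dpn relative to 94 dpc, 17 members were lower and 2 higher, against 17.5% and 14.8% of all genes, with a median log2 change of -0.51 against -0.06. At 188 dpn relative to 94 dpc, 24 were lower and 2 higher, against 27.4% and 19.5% of all genes, with a median log2 change of -0.83 against -0.08. The largest falls were those of MMP14 (13.0-fold), LAMB1 (11.4-fold), COL5A1 (7.42-fold) and COL4A2 (6.15-fold). That of COL5A1 depended on the probe set, as given with its values. The 2 rises, ITGA2 and ITGAM, were dim. With each array centred on its median, 11 members were lower and 8 higher at 28 dpn than at 94 dpc, against 10.6% and 20.9% of all genes, and 20 were lower and 4 higher at 188 dpn than at 94 dpc, against 19.4% and 28.9%. The 5 comparisons share samples and are not independent of each other.

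**Figure D2:**
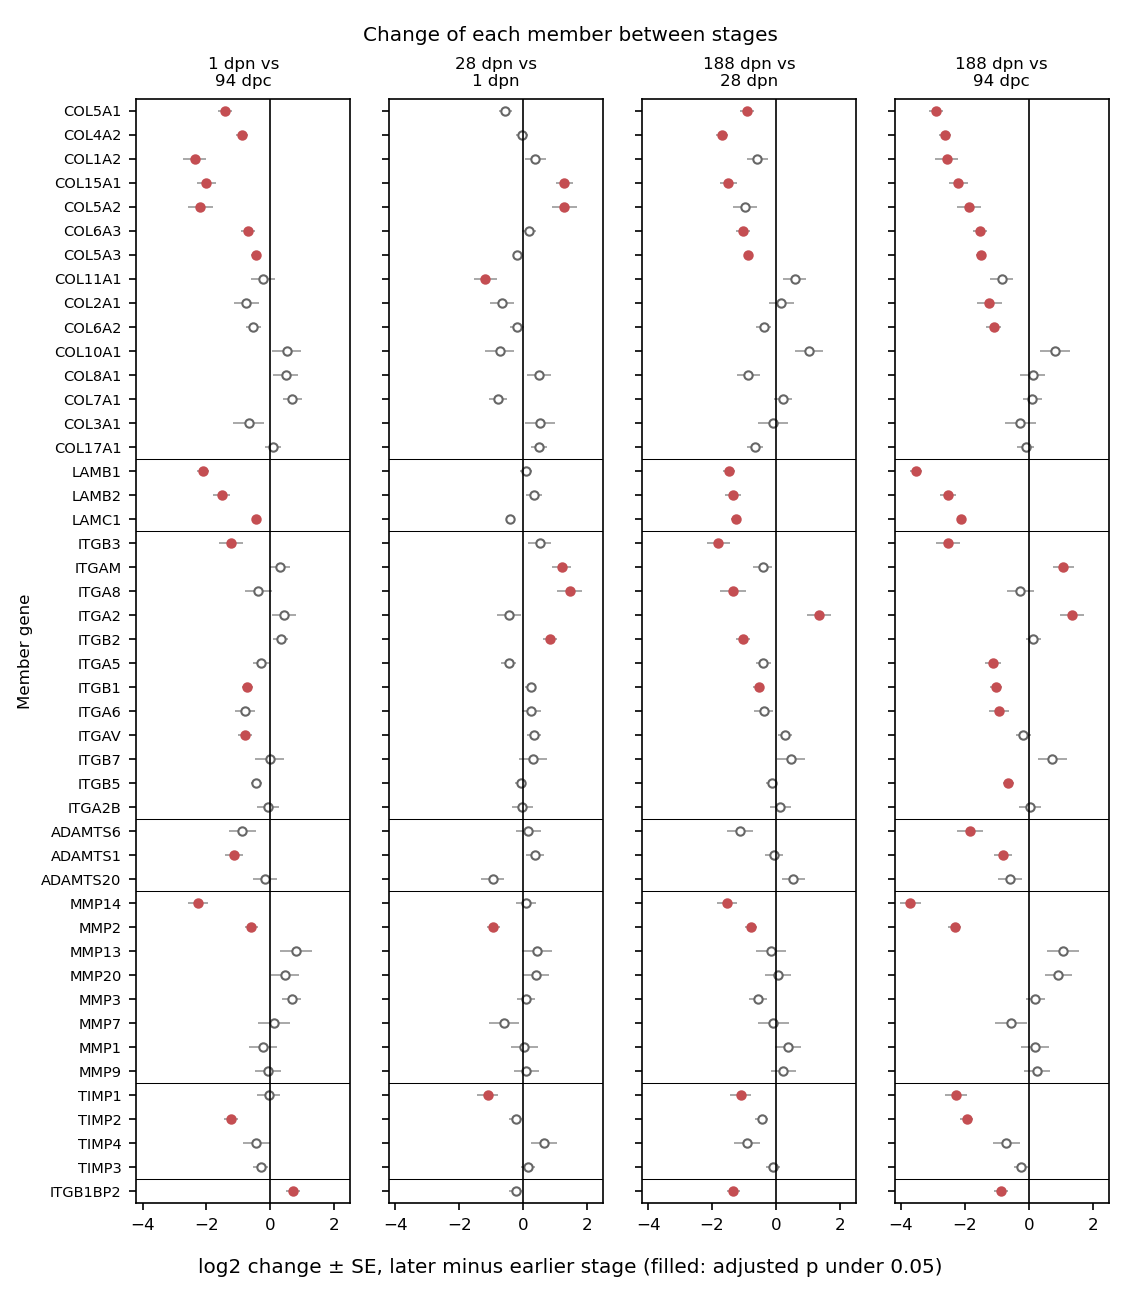
log2 change ± SE (later minus earlier stage, on the log2(signal + 16) scale) of each of the 46 members in 4 comparisons, with filled points for an adjusted p under 0.05. Filled points lie mostly left of 0 for 1 dpn against 94 dpc, 188 dpn against 28 dpn and 188 dpn against 94 dpc, and on both sides of 0 for 28 dpn against 1 dpn.

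Most markers of fibroblasts and of endothelial cells were lower at 1 dpn and at 188 dpn than at 94 dpc. The summed signal of 5 fibroblast markers was 43114 to 58542 at 94 dpc, then 13826 to 33071, 16246 to 34551 and 10935 to 17016 at 1, 28 and 188 dpn, with all 5 lower at 188 dpn than at 94 dpc and 4 of 5 lower at 1 dpn than at 94 dpc, against 27.4% and 19.4% of all genes. At 28 dpn relative to 1 dpn, 1 of the 5 was higher and 1 lower, against 13.5% and 10.6% of all genes. POSTN, a matrix protein of fibroblasts, fell by 6.09 ± 0.36 (SE, adjusted p = 1.1e-11) on the log2 scale at 188 dpn relative to 94 dpc, the largest fall of the 5. The summed signal of 6 endothelial markers was 8627 to 14525 at 94 dpc, then 3170 to 4678, 5721 to 8014 and 2133 to 3231 at 1, 28 and 188 dpn. Of these, 5 of 6 were lower at 1 dpn than at 94 dpc, 5 of 6 were higher at 28 dpn than at 1 dpn, and 4 of 6 were lower at 188 dpn than at 28 dpn, against 19.4%, 13.5% and 12.5% of all genes. Of the 46 members, 5 were higher at 28 dpn than at 1 dpn, against the same 13.5% of all genes.

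The 6 skeletal muscle markers went the other way, with a summed signal of 218637 to 263963 at 94 dpc, then 240520 to 433059, 313131 to 544810 and 449719 to 613248 at 1, 28 and 188 dpn. All 6 were higher at 188 dpn than at 94 dpc, against 19.5% of all genes, although 5 of them (CKM, MYL1, MYLPF, TNNI2 and TNNT3) did not pass after quantile normalization. The sum of 5 leukocyte markers was 449 to 737 at 94 dpc, then 498 to 1183, 624 to 1081 and 433 to 896 at 1, 28 and 188 dpn, and the ranges of all stages overlapped. The sum of 9 hepatocyte markers was 9859 to 24252 at 94 dpc, then 4609 to 13555, 1798 to 21013 and 2473 to 18087 at 1, 28 and 188 dpn. Of the 9, 1 was higher and 2 were lower at 188 dpn than at 94 dpc, against 19.5% and 27.4% of all genes. The sum of 3 cartilage markers was 214 to 372 at 94 dpc, then 114 to 241, 70.4 to 163 and 101 to 252 at 1, 28 and 188 dpn. No marker of any list had a mean of 0 at any stage, and the part of these lists in the results was not tested. In such bulk samples, fewer cells of a type and less RNA per cell cannot be told apart.

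**Figure D3:**
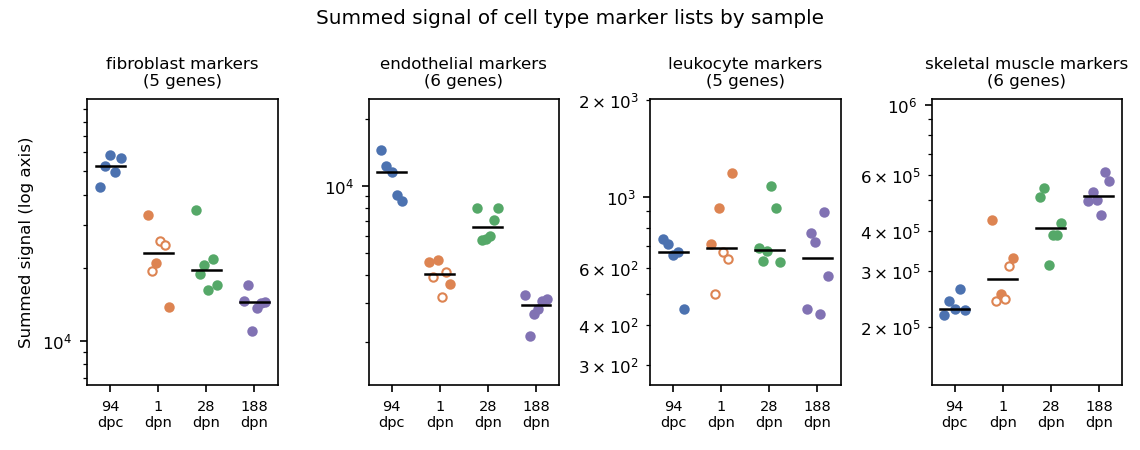
Summed signal (log axis) of 4 cell type marker lists in each sample by stage. Bars mark the stage median and open points the 3 samples at 1 dpn of low GAPDH ratio. The fibroblast and endothelial sums are highest at 94 dpc and lowest at 188 dpn, the endothelial sum is higher at 28 dpn than at 1 dpn in every sample, and the skeletal muscle sum is highest at 188 dpn.

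Changes are given below as limma's log2 difference, later minus earlier stage, of log2(signal + 16). The p-values are adjusted over all probe sets, or over all genes where the mean of a gene's probe sets was used. Of the 7 fibrillar collagen chains, 4 were lower at 1 dpn than at 94 dpc and 5 were lower at 188 dpn than at 94 dpc, against 19.4% and 27.4% of all genes. The 5 samples at 94 dpc had COL1A2 signals of 2417, 4769, 5104, 2675 and 2156. After birth the lowest, median and highest signals were 316, 674 and 1291 at 1 dpn, 463, 730.1 and 1596 at 28 dpn, and 367, 560.5 and 650.0 at 188 dpn. All samples at 94 dpc lay above all postnatal samples, and the 3 postnatal stages overlapped. COL1A2 fell by 2.37 ± 0.35 (SE, adjusted p = 2.5e-05) on the log2 scale at 1 dpn relative to 94 dpc and fell by 2.57 ± 0.35 (SE, adjusted p = 2.8e-06) at 188 dpn relative to 94 dpc. At 188 dpn relative to 28 dpn its log2 change was -0.58 ± 0.33 (SE, adjusted p = 0.299), which did not pass. Its second, dimmer probe set fell by 2.29 (adjusted p = 5.8e-04) at 188 dpn relative to 94 dpc and did not pass at 1 dpn relative to 94 dpc, where its log2 change was -1.19 (adjusted p = 0.0778). With the mean of both, the change at 1 dpn relative to 94 dpc was -1.78 (adjusted p = 4.7e-04).

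Type V collagen forms mixed fibrils with type I and sets where fibrils start. For COL5A1, the signals at 94 dpc were 6462, 6518, 5932, 6701 and 8428. The 6 samples of each later stage had lowest, median and highest signals of 1617, 2316 and 4363 at 1 dpn, 1255, 1713 and 2368 at 28 dpn, and 711, 894 and 1167 at 188 dpn. The samples of 94 dpc lay above and those of 188 dpn below all others, while 1 dpn and 28 dpn overlapped. COL5A1 fell by 1.42 ± 0.22 (SE, adjusted p = 5.1e-05) at 1 dpn relative to 94 dpc and fell by 0.91 ± 0.21 (SE, adjusted p = 0.00502) at 188 dpn relative to 28 dpn. The change at 188 dpn relative to 94 dpc was -2.89 ± 0.22 (SE, adjusted p = 6.5e-10). Its 5 other probe sets did not all follow. The bright one, with a mean signal of 3021, fell by 3.69 (adjusted p = 8.6e-11) over the same span, and 2 dim ones were lower as well, at -1.87 (adjusted p = 1.7e-04) and -1.10 (adjusted p = 0.00645). The remaining 2 dim ones did not pass, at 0.11 (adjusted p = 0.822) and 0.85 (adjusted p = 0.05128), and the first of these, with a highest stage mean of 85.6, was higher at 1 dpn than at 94 dpc, by 1.31 (adjusted p = 0.00426). With the mean of all its probe sets, the change at 188 dpn was -1.43 (adjusted p = 2.9e-07) relative to 94 dpc and -0.38 (adjusted p = 0.108) relative to 28 dpn, which did not pass.

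Signals of COL5A2 at 94 dpc were 201, 245, 335, 169.5 and 224. Those at 1 dpn had a lowest, median and highest value of 16.1, 38.2 and 102, those at 28 dpn of 46.7, 131 and 165, and those at 188 dpn of 20.2, 37.1 and 137. The 5 samples at 94 dpc lay above all others, and the 3 postnatal stages overlapped. At 28 dpn, 5 of 6 samples lay above all 6 samples at 1 dpn. COL5A2 fell by 2.19 ± 0.39 (SE, adjusted p = 2.2e-04) at 1 dpn relative to 94 dpc and rose by 1.29 ± 0.38 (SE, adjusted p = 0.0194) at 28 dpn relative to 1 dpn. The rise did not pass without 1 dpn replicate 4, at 1.14 (adjusted p = 0.0530), or once the 3 samples of low GAPDH ratio were dropped, at 0.91 (adjusted p = 0.216). Its other probe set, with a highest stage mean of 99.6, passed in none of the 5 comparisons. At 1 dpn relative to 94 dpc its log2 change was 0.45 (adjusted p = 0.512). With the mean of both, the change there was -0.87 (adjusted p = 0.0224) and the rise at 28 dpn was 0.04 (adjusted p = 0.945).

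COL5A3, the least widespread type V chain, had signals of 954 to 1366 at 94 dpc, then 719.5 to 929, 600.3 to 943 and 324 to 484 at 1, 28 and 188 dpn. The 94 dpc samples lay above and the 188 dpn samples below all others, and it fell by 0.86 ± 0.15 (SE, adjusted p = 4.1e-04) at 188 dpn relative to 28 dpn and fell by 1.50 ± 0.16 (SE, adjusted p = 7.9e-08) relative to 94 dpc. Its smaller fall at 1 dpn relative to 94 dpc (-0.46 ± 0.16) was lost without any 1 of 7 samples, replicates 1, 2, 4 and 5 at 94 dpc and 1, 5 and 6 at 1 dpn (adjusted p = 0.0530 to 0.102). Of its 2 dimmer probe sets, 1 was lower at 188 dpn than at 94 dpc, with a log2 change of -1.12 (adjusted p = 0.0372), and the other did not pass, at -0.11 (adjusted p = 0.818). With the mean of all 3 the change was -0.91 (adjusted p = 5.1e-04). The cartilage chains COL2A1 and COL11A1 were near or below the array median. COL2A1 had medians of 206 at 94 dpc, then 108, 60.1 and 64.4 at 1, 28 and 188 dpn, and fell by 1.41 ± 0.40 (SE, adjusted p = 0.0125) at 28 dpn relative to 94 dpc, or fell by 0.82 (adjusted p = 0.0898) with the mean of all its probe sets, which did not pass. COL11A1 had medians of 99.5 at 94 dpc, then 79.6, 28.1 and 57.2 at 1, 28 and 188 dpn, and fell by 1.43 ± 0.37 (SE, adjusted p = 0.00676) over the same interval, while its other probe set did not pass. The COL3A1 probe set, for the type III chain of soft tissue, was dim, with signals of 27.7 to 195 at 94 dpc, then 8.71 to 166, 43.6 to 98.9 and 15.4 to 161 at 1, 28 and 188 dpn, and did not pass in any comparison.

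The basement membrane chain COL4A2 fell in 2 steps. At 94 dpc the signals of COL4A2 were 8378, 9300, 7776, 8682 and 8415. In the later stages, given as lowest, median and highest, they were 3287, 4436 and 6840 at 1 dpn, 3246, 4614 and 5767 at 28 dpn, and 1180, 1369 and 1662 at 188 dpn. The 94 dpc samples lay above and the 188 dpn samples below all others, and 1 dpn and 28 dpn overlapped. COL4A2 fell by 0.89 ± 0.18 (SE, adjusted p = 8.8e-04) at 1 dpn relative to 94 dpc and fell by 1.69 ± 0.18 (SE, adjusted p = 1.3e-06) at 188 dpn relative to 28 dpn.

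Type VI collagen makes beaded filaments between fibrils and the basement membrane of muscle fibres. COL6A3 had signals of 16173, 18834, 18636, 19073 and 19318 in the 5 samples at 94 dpc. Its lowest, median and highest signals were 6193, 13265 and 17016 at 1 dpn, 10654, 13072 and 15887 at 28 dpn, and 4942, 6460 and 7378 at 188 dpn. The 188 dpn samples lay below all samples at 94 dpc and 28 dpn, whereas 1 dpn spanned from below the 188 dpn maximum to within the 94 dpc range. COL6A3 fell by 1.03 ± 0.22 (SE, adjusted p = 0.00199) at 188 dpn relative to 28 dpn and fell by 1.53 ± 0.23 (SE, adjusted p = 8.1e-06) relative to 94 dpc. Its fall at 1 dpn relative to 94 dpc (-0.70 ± 0.23, SE, adjusted p = 0.0249) was lost without 94 dpc replicate 5, 1 dpn replicate 2 or 1 dpn replicate 5 (adjusted p = 0.0512 to 0.0649), and was -0.36 (adjusted p = 0.176) once the 3 samples of low GAPDH ratio were dropped. COL6A2, a second chain of the same trimer, had medians of 1070 at 94 dpc, then 715, 661 and 511 at 1, 28 and 188 dpn and fell by 1.10 ± 0.23 (SE, adjusted p = 5.0e-04) at 188 dpn relative to 94 dpc.

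COL15A1, a collagen at the basement membranes of muscle and capillaries, was lower at 1 dpn than at 94 dpc. It was higher again at 28 dpn and lower once more at 188 dpn. The 5 samples at 94 dpc had COL15A1 signals of 9594, 9577, 14226, 9306 and 9297. After birth the lowest, median and highest signals were 966, 3366 and 4347 at 1 dpn, 5632, 6124 and 7783 at 28 dpn, and 1746, 2220 and 2837 at 188 dpn. Only 1 dpn and 188 dpn overlapped. COL15A1 fell by 2.00 ± 0.29 (SE, adjusted p = 1.8e-05) at 1 dpn relative to 94 dpc, rose by 1.29 ± 0.27 (SE, adjusted p = 0.00198) at 28 dpn relative to 1 dpn, and fell by 1.49 ± 0.27 (SE, adjusted p = 6.1e-04) at 188 dpn relative to 28 dpn. With the 3 samples of low GAPDH ratio removed the change at 1 dpn was -1.85 (adjusted p = 3.9e-05) and the rise at 28 dpn 1.14 (adjusted p = 0.00460). The median sums of the endothelial markers had the same order of stages, and PECAM1, an adhesion protein of vessels, fell by 1.25 ± 0.16 (SE, adjusted p = 6.0e-06), rose by 0.63 ± 0.16 (SE, adjusted p = 0.00697) and fell by 1.31 ± 0.16 (SE, adjusted p = 6.1e-06) in the same 3 comparisons. The other 4 chains, COL7A1 of skin anchoring fibrils, COL8A1 of vessel walls, COL10A1 of growth cartilage and COL17A1 of epithelial hemidesmosomes, were called in no comparison. The first 3 were dim, and COL17A1 had signals of 125 to 292 at 94 dpc, then 121 to 292, 197 to 312 and 77.0 to 243 at 1, 28 and 188 dpn.

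**Figure D4:**
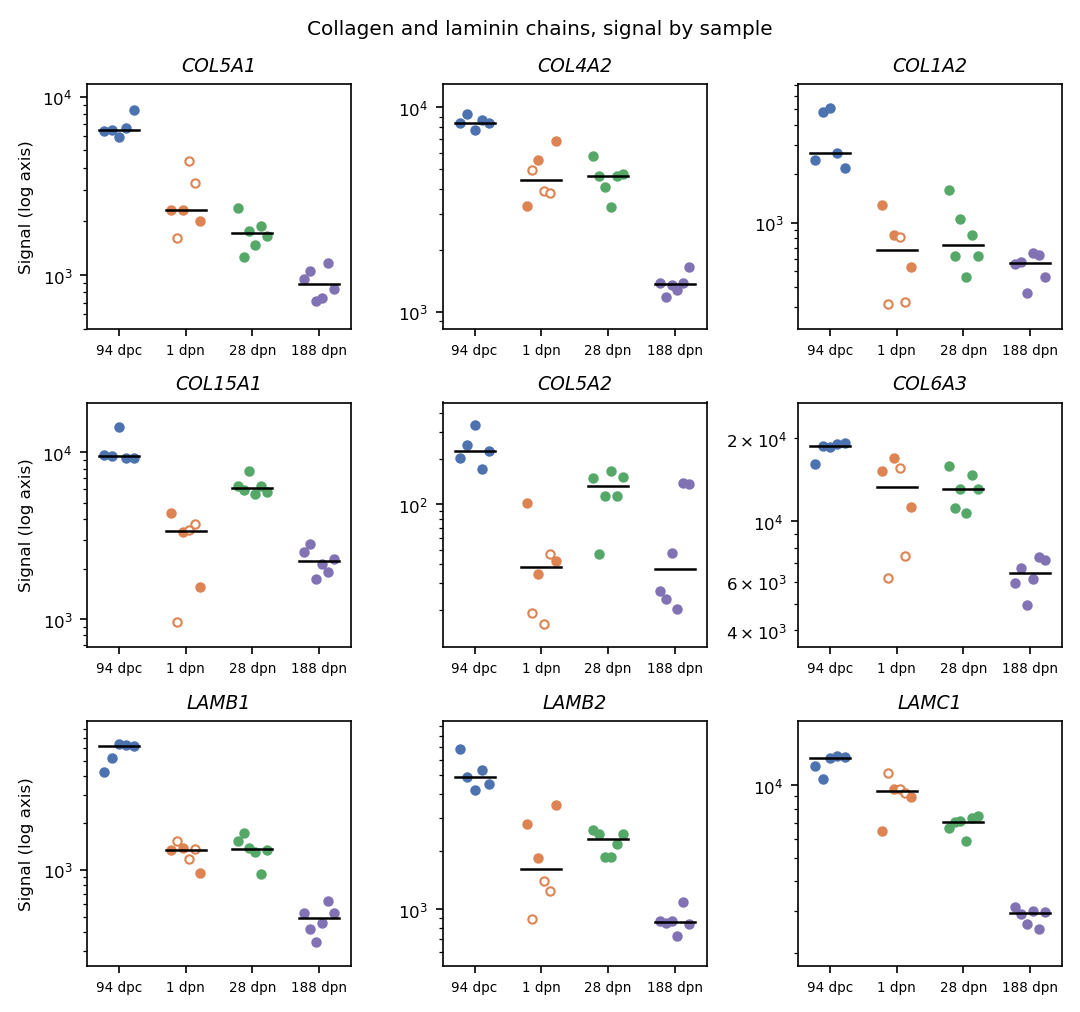
Signal by sample (log axis, 1 panel per gene) of 6 collagen and 3 laminin chains at the 4 stages. Bars mark the stage median, and open points the 3 samples at 1 dpn of low GAPDH ratio. COL1A2 is low at all postnatal stages, COL15A1 and COL5A2 are higher at 28 dpn than at 1 dpn, and COL4A2 and LAMC1 are lowest at 188 dpn.

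All 3 measured laminin chains were lower at 1 dpn and at 188 dpn than at 94 dpc, against 19.4% and 27.4% of all genes, and lower at 188 dpn than at 28 dpn, against 12.5%. Other probe sets of LAMB1 and LAMC1 did not pass in every one of these comparisons. For LAMB1, the signals at 94 dpc were 4230, 5236, 6408, 6291 and 6223. The 6 samples of each later stage had lowest, median and highest signals of 958, 1347 and 1534 at 1 dpn, 946, 1358 and 1711 at 28 dpn, and 346, 492 and 628 at 188 dpn. The 94 dpc samples lay above and the 188 dpn samples below all others. LAMB1, a beta chain widespread in fetal basement membranes, fell by 2.12 ± 0.19 (SE, adjusted p = 3.5e-08) at 1 dpn relative to 94 dpc and fell by 1.47 ± 0.18 (SE, adjusted p = 7.8e-06) at 188 dpn relative to 28 dpn. At 188 dpn relative to 94 dpc the change was -3.52 ± 0.19 (SE, adjusted p = 3.1e-12), and its second probe set, with a mean signal of 275, fell by 2.11 (adjusted p = 1.4e-05). That probe set was higher at 28 dpn than at 1 dpn, by 1.14 (adjusted p = 0.0125), where the brighter one did not pass, and did not pass at 188 dpn relative to 28 dpn, at -0.50 (adjusted p = 0.336). With the mean of both, the change at 188 dpn relative to 94 dpc was -2.81 (adjusted p = 2.6e-10).

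Signals of LAMB2 at 94 dpc were 6848, 4909, 4188, 5291 and 4515. Those at 1 dpn had a lowest, median and highest value of 891, 1630 and 3510, those at 28 dpn of 1874, 2325 and 2593, and those at 188 dpn of 723, 855 and 1093. The 94 dpc samples lay above all others, and 1 dpn and 188 dpn overlapped. LAMB2, a beta chain found at the neuromuscular synapse, fell by 1.53 ± 0.26 (SE, adjusted p = 1.1e-04) at 1 dpn relative to 94 dpc and fell by 1.35 ± 0.25 (SE, adjusted p = 5.9e-04) at 188 dpn relative to 28 dpn. Once the 3 samples of low GAPDH ratio were dropped, the change at 1 dpn relative to 94 dpc was -0.95 (adjusted p = 0.00268). With that ratio as a covariate it was -0.89 (adjusted p = 0.00356).

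At 94 dpc the signals of LAMC1 were 12015, 10639, 13048, 13245 and 13138. In the later stages, given as lowest, median and highest, they were 6490, 9468 and 11265 at 1 dpn, 5874, 7065 and 7446 at 28 dpn, and 2533, 2945 and 3112 at 188 dpn. Samples at 188 dpn lay below all others, and 1 dpn overlapped with its neighbours. LAMC1, the gamma chain shared by most laminins, fell by 1.26 ± 0.14 (SE, adjusted p = 3.4e-06) at 188 dpn relative to 28 dpn and fell by 2.11 ± 0.15 (SE, adjusted p = 1.7e-10) relative to 94 dpc, and its 3 other probe sets were also lower at 188 dpn than at 94 dpc, and the mean of all 4 gave a change of -1.33 (adjusted p = 1.0e-07). At 188 dpn relative to 28 dpn, 2 of the 3 did not pass, at -0.33 (adjusted p = 0.254) and -0.60 (adjusted p = 0.411). Its fall at 1 dpn relative to 94 dpc (-0.44 ± 0.15, SE, adjusted p = 0.0310) was lost without any 1 of replicates 3, 4 and 5 at 94 dpc or replicate 1 at 1 dpn (adjusted p = 0.0679 to 0.0701) and with each array centred on its median, at -0.17 (adjusted p = 0.483).

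Among 6 partners of the basement membrane and the dystroglycan complex, 1 was higher and 2 were lower at 188 dpn than at 94 dpc, against 19.5% and 27.4% of all genes. NID2, a nidogen that links laminin to type IV collagen, fell by 3.88 ± 0.26 (SE, adjusted p = 6.1e-11). SGCD, a sarcoglycan of the muscle membrane, rose by 1.14 ± 0.26 (SE, adjusted p = 0.00129). SNTB1, a syntrophin of the same complex, fell by 1.86 ± 0.25 (SE, adjusted p = 8.8e-06) at 1 dpn relative to 94 dpc and rose by 2.54 ± 0.24 (SE, adjusted p = 2.1e-07) at 28 dpn relative to 1 dpn.

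The beta chains ITGB1, ITGB3 and ITGB5 declined, whereas the leukocyte chains ITGB2 and ITGAM had their highest means at 28 dpn. Of the 12 chains, 2 were higher and 5 lower at 188 dpn than at 94 dpc, against 19.5% and 27.4% of all genes. ITGB1 had signals of 2990, 4323, 5821, 3361 and 4199 in the 5 samples at 94 dpc. Its lowest, median and highest signals were 1832, 2487 and 3187 at 1 dpn, 2518, 2915 and 3269 at 28 dpn, and 1622, 1966 and 2356 at 188 dpn. The 188 dpn samples lay below those of 94 dpc and 28 dpn, and 1 dpn overlapped with all. ITGB1, the partner of most collagen- and laminin-binding alpha chains, fell by 0.72 ± 0.18 (SE, adjusted p = 0.00420) at 1 dpn relative to 94 dpc and fell by 1.02 ± 0.18 (SE, adjusted p = 6.8e-05) at 188 dpn relative to 94 dpc. With each array centred on its median the change at 1 dpn relative to 94 dpc was -0.44 (adjusted p = 0.0870) and did not pass. Its fall at 188 dpn relative to 28 dpn (-0.54 ± 0.17) passed with adjusted p = 0.0355 and was lost without any 1 of replicates 3, 4, 5 and 6 at 28 dpn or 2, 3, 5 and 6 at 188 dpn (adjusted p = 0.0547 to 0.0815).

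The 5 samples at 94 dpc had ITGB3 signals of 478, 615, 695, 573 and 362. After birth the lowest, median and highest signals were 105, 174 and 583 at 1 dpn, 198, 330.2 and 423 at 28 dpn, and 16.8, 85.4 and 172 at 188 dpn. Samples at 188 dpn lay below those of 94 dpc and 28 dpn, and 1 dpn spread across both. ITGB3, which pairs with the alpha V chain on growing vessels and with ITGA2B on platelets, fell by 1.80 ± 0.37 (SE, adjusted p = 0.00156) at 188 dpn relative to 28 dpn and fell by 2.52 ± 0.38 (SE, adjusted p = 1.2e-05) relative to 94 dpc. Its fall at 1 dpn relative to 94 dpc (-1.23 ± 0.38, SE, adjusted p = 0.0193) was lost when either replicate 3 at 94 dpc or replicate 4 at 1 dpn was left out (adjusted p = 0.0515 to 0.0533), and was -0.72 (adjusted p = 0.263) once the 3 samples of low GAPDH ratio were dropped. ITGB5, another partner of alpha V, had medians of 1221 at 94 dpc, then 948, 878 and 786 at 1, 28 and 188 dpn and fell by 0.64 ± 0.18 (SE, adjusted p = 0.00668) at 188 dpn relative to 94 dpc, a call lost with each array centred on its median, at -0.35 (adjusted p = 0.144).

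For ITGA5, the signals at 94 dpc were 232, 202, 209, 176 and 196. The 6 samples of each later stage had lowest, median and highest signals of 103, 163 and 291 at 1 dpn, 56.2, 121 and 184 at 28 dpn, and 55.6, 83.4 and 110.3 at 188 dpn. The 188 dpn samples lay below all 94 dpc samples, and the other stages overlapped with both. ITGA5, the alpha chain of the fibronectin receptor, fell by 1.13 ± 0.25 (SE, adjusted p = 9.5e-04) at 188 dpn relative to 94 dpc, while its dimmer probe set did not pass. ITGAV, the alpha V chain, had medians of 359 at 94 dpc, then 206, 232 and 291 at 1, 28 and 188 dpn. It fell by 0.80 ± 0.23 (SE, adjusted p = 0.0129) at 1 dpn relative to 94 dpc and fell by 0.48 (adjusted p = 0.169) once the 3 samples of low GAPDH ratio were dropped, which did not pass.

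Signals of ITGB2 at 94 dpc were 140.3, 119.5, 151, 80.3 and 93.3. Those at 1 dpn had a lowest, median and highest value of 96.8, 129 and 252, those at 28 dpn of 189, 282 and 387, and those at 188 dpn of 102, 124 and 172. The 28 dpn samples lay above those of 94 dpc and 188 dpn and overlapped with 1 dpn. ITGB2, the common beta chain of leukocyte integrins, rose by 0.85 ± 0.22 (SE, adjusted p = 0.0100) at 28 dpn relative to 1 dpn and fell by 1.03 ± 0.22 (SE, adjusted p = 0.00262) at 188 dpn relative to 28 dpn. ITGAM, its partner on myeloid cells, was dim, with medians of 5.47 at 94 dpc, then 11.9, 56.0 and 42.0 at 1, 28 and 188 dpn, and rose by 1.50 ± 0.32 (SE, adjusted p = 0.00130) at 28 dpn relative to 94 dpc. Its other probe set passed in no comparison, and with the mean of both the rise was 0.77 (adjusted p = 0.0670). None of the 5 leukocyte markers (CD14, CD163, CD3D, CD3E and PTPRC) was called at 28 dpn relative to 1 dpn or at 188 dpn relative to 28 dpn, and CD3E was higher at 188 dpn than at 94 dpc. CTSS, a cathepsin of antigen-presenting cells, is not on the leukocyte list and was named after its values were seen. It rose by 1.92 ± 0.22 (SE, adjusted p = 2.3e-06) at 28 dpn relative to 1 dpn and fell by 2.19 ± 0.22 (SE, adjusted p = 7.7e-07) at 188 dpn relative to 28 dpn. It belongs to a list of 14 activators and inhibitors of matrix turnover. Of these, 3 were higher and 3 lower at 28 dpn than at 1 dpn, against 13.5% and 10.6% of all genes.

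Among the dim alpha chains, ITGA8 rose by 1.45 ± 0.40 (SE, adjusted p = 0.0145) at 28 dpn relative to 1 dpn, with medians of 57.0 at 94 dpc, then 25.6, 120.5 and 31.6 at 1, 28 and 188 dpn. After removal of the 3 samples of low GAPDH ratio this rise was 1.53 (adjusted p = 0.0518). ITGA2, which binds collagen, had medians of 22.1 at 94 dpc, then 33.0, 24.6 and 78.1 at 1, 28 and 188 dpn and rose by 1.35 ± 0.38 (SE, adjusted p = 0.00724) at 188 dpn relative to 94 dpc. Its 2 probe sets disagreed, since the other one, with a highest stage mean of 42.3, fell by 1.33 (adjusted p = 2.2e-04) over the same span. ITGA6, which binds laminin, had medians of 50.4 at 94 dpc, then 12.1, 13.8 and 8.50 at 1, 28 and 188 dpn, and its lower call at 188 dpn relative to 94 dpc (adjusted p = 0.0232) was lost without 94 dpc replicates 1, 3 or 4 (adjusted p = 0.0708 to 0.0889). ITGB7 of lymphocytes and ITGA2B of platelets were called in no comparison.

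ITGB1BP2 was the 1 member called higher at 1 dpn than at 94 dpc. At 94 dpc the signals of ITGB1BP2 were 3759, 5409, 4798, 7016 and 5196. In the later stages, given as lowest, median and highest, they were 5514, 8245 and 13540 at 1 dpn, 4771, 7172 and 8768 at 28 dpn, and 2536, 2859 and 3184 at 188 dpn. Samples at 188 dpn lay below all others, and 1 dpn and 94 dpc overlapped. ITGB1BP2 rose by 0.71 ± 0.22 (SE, adjusted p = 0.0179) at 1 dpn relative to 94 dpc and fell by 1.33 ± 0.21 (SE, adjusted p = 1.1e-04) at 188 dpn relative to 28 dpn. The rise was lost without 94 dpc replicate 1, at 0.59 (adjusted p = 0.0583), and with quantile normalization, at 0.39 (adjusted p = 0.200). Its other bright probe set had the opposite sign and did not pass, at -0.30 (adjusted p = 0.624). With the mean of both, the change was 0.20 (adjusted p = 0.594). Among 13 integrin adhesion partners, 6 were lower and 0 higher at 188 dpn than at 94 dpc, against 27.4% and 19.5% of all genes. They included TNS3, a tensin (-2.57 ± 0.22, SE, adjusted p = 3.3e-09), TES, a zyxin-binding LIM protein (-2.39 ± 0.30, SE, adjusted p = 7.9e-07), PARVA, a parvin (-1.89 ± 0.22, SE, adjusted p = 2.8e-07), and ACTN1, a non-muscle actinin (-1.73 ± 0.20, SE, adjusted p = 3.5e-07), each given as the log2 change.

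**Figure D5:**
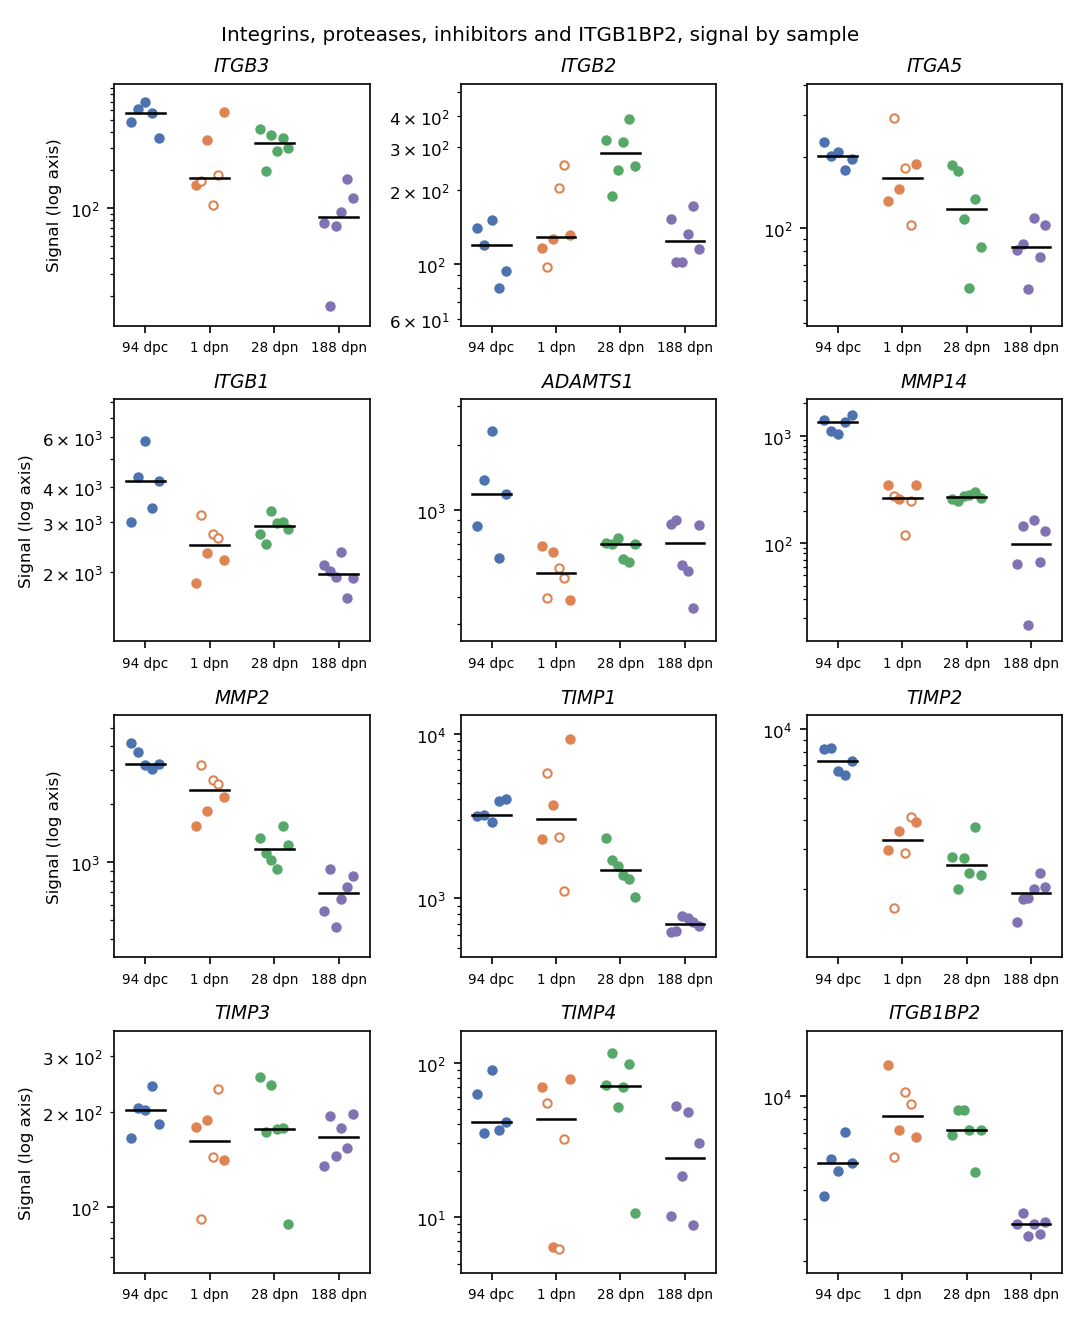
Signal by sample (log axis, 1 panel per gene) of 4 integrin chains, ADAMTS1, MMP14, MMP2, the 4 TIMPs and ITGB1BP2 at the 4 stages. Bars mark the stage median, and open points the 3 samples at 1 dpn of low GAPDH ratio. MMP14 and TIMP2 are highest at 94 dpc, ITGB2 is highest at 28 dpn, TIMP1 spreads widely at 1 dpn, and TIMP3 overlaps at all stages.

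Of the 8 MMPs, MMP14 and MMP2 were lower at 188 dpn than at 94 dpc, a share of 25% against 27.4% of all genes, and the other 6 passed in no comparison. MMP14 cuts fibrillar collagen at the cell surface and activates the gelatinase MMP2 in a complex with TIMP2. MMP14 had signals of 1384, 1102, 1033, 1332 and 1555 in the 5 samples at 94 dpc. Its lowest, median and highest signals were 119.9, 263 and 349 at 1 dpn, 244, 269 and 299 at 28 dpn, and 17.3, 98.0 and 162 at 188 dpn. The 94 dpc samples lay above all others and the 188 dpn samples below those of 28 dpn, and 1 dpn replicate 4, 1 of the samples of low GAPDH ratio, lay within the 188 dpn range. MMP14 fell by 2.27 ± 0.32 (SE, adjusted p = 1.7e-05) at 1 dpn relative to 94 dpc and fell by 1.54 ± 0.31 (SE, adjusted p = 0.00143) at 188 dpn relative to 28 dpn. When the 3 samples of low GAPDH ratio were left out the change at 1 dpn relative to 94 dpc was -1.96 (adjusted p = 6.8e-04). The change at 188 dpn relative to 94 dpc was -3.70 ± 0.32 (SE, adjusted p = 4.2e-09).

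The 5 samples at 94 dpc had MMP2 signals of 4148, 3753, 3187, 3031 and 3249. After birth the lowest, median and highest signals were 1548, 2357 and 3199 at 1 dpn, 918, 1166 and 1541 at 28 dpn, and 459, 694 and 926 at 188 dpn. Each postnatal stage had a lower median than the one before it, and the samples at 28 dpn lay below all samples at 1 dpn. MMP2 fell by 0.94 ± 0.20 (SE, adjusted p = 0.00197) at 28 dpn relative to 1 dpn, fell by 0.78 ± 0.20 (SE, adjusted p = 0.00969) at 188 dpn relative to 28 dpn and fell by 2.32 ± 0.21 (SE, adjusted p = 6.2e-09) at 188 dpn relative to 94 dpc. With the 3 samples of low GAPDH ratio removed, the change at 28 dpn relative to 1 dpn was -0.64 (adjusted p = 0.0606) and did not pass. The fall at 1 dpn relative to 94 dpc (-0.60 ± 0.21, SE, adjusted p = 0.0349) was lost without any 1 of replicates 1, 2, 3 and 5 at 94 dpc or 1, 3 and 6 at 1 dpn (adjusted p = 0.05004 to 0.0851).

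The collagenases MMP1 and MMP13, the gelatinase MMP9, the stromelysin MMP3, the matrilysin MMP7 and the enamel protease MMP20 were all dim. Their highest signals in any sample were 80.9 for MMP1, 191 for MMP13, 102 for MMP9, 107 for MMP3, 139 for MMP7 and 62.0 for MMP20. No detection calls were used, so these transcripts are not said to be absent.

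For ADAMTS1, the signals at 94 dpc were 849.5, 1385, 2310, 607 and 1193. The 6 samples of each later stage had lowest, median and highest signals of 389, 519 and 689.8 at 1 dpn, 582, 701 and 746 at 28 dpn, and 358, 713 and 900.2 at 188 dpn. The spread at 94 dpc reached into every other stage. ADAMTS1, which cuts the proteoglycans versican and aggrecan, fell by 1.13 ± 0.28 (SE, adjusted p = 0.00393) at 1 dpn relative to 94 dpc, and its second probe set fell by 1.34 (adjusted p = 0.00237). ADAMTS6 was dim, with medians of 137 at 94 dpc, then 51.7, 76.5 and 13.4 at 1, 28 and 188 dpn, and fell by 1.84 ± 0.42 (SE, adjusted p = 0.00109) at 188 dpn relative to 94 dpc. ADAMTS20 was dim as well, with signals of 14.7 to 73.8 at 94 dpc, then 14.0 to 88.4, 4.27 to 36.2 and 5.33 to 70.0 at 1, 28 and 188 dpn. Its lower call at 28 dpn relative to 94 dpc (-1.12) was fragile. It was lost without any 1 of replicates 2, 3, 4 and 5 at 94 dpc or 1, 2, 3 and 5 at 28 dpn (adjusted p = 0.0540 to 0.0885).

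The 4 TIMPs followed different courses. Signals of TIMP1 at 94 dpc were 3162, 3194, 2924, 3883 and 4025. Those at 1 dpn had a lowest, median and highest value of 1110, 3026 and 9276, those at 28 dpn of 1024, 1477 and 2315, and those at 188 dpn of 626, 695 and 778. At 1 dpn, replicate 6 and replicate 2 lay above all samples at 94 dpc and replicates 1, 4 and 5 lay below them. The 188 dpn samples lay below all others. TIMP1, a secreted inhibitor induced in injury and growth, passed at 188 dpn relative to 94 dpc, with a log2 change of -2.27 ± 0.35 (SE, adjusted p = 1.4e-05), and did not pass at 1 dpn relative to 94 dpc. It fell by 1.11 ± 0.33 (SE, adjusted p = 0.0229) at 28 dpn relative to 1 dpn, lost without replicates 2 or 6 at 1 dpn or replicate 6 at 28 dpn (adjusted p = 0.0565 to 0.0609).

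At 94 dpc the signals of TIMP2 were 8232, 8256, 6605, 6304 and 7249. In the later stages, given as lowest, median and highest, they were 1650, 3284 and 4131 at 1 dpn, 2007, 2546 and 3721 at 28 dpn, and 1439, 1920 and 2348 at 188 dpn. The 94 dpc samples lay above all others, which overlapped. TIMP2 fell by 1.24 ± 0.21 (SE, adjusted p = 1.3e-04) at 1 dpn relative to 94 dpc and fell by 1.94 ± 0.21 (SE, adjusted p = 1.3e-07) at 188 dpn relative to 94 dpc. Its other probe set, with a mean signal of 2243, passed in neither comparison (adjusted p = 0.795 and 0.193), so the fall rests on 1 of 2 bright probe sets, and with the mean of both the change at 188 dpn relative to 94 dpc was -0.77 (adjusted p = 0.00188).

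TIMP3 had signals of 165, 205, 202, 241 and 182 in the 5 samples at 94 dpc. Its lowest, median and highest signals were 91.7, 162 and 235 at 1 dpn, 88.8, 177 and 257 at 28 dpn, and 134, 166 and 196 at 188 dpn. All stages overlapped, and TIMP3, which binds to the matrix itself, was called in no comparison. Its other 2 probe sets, with mean signals of 23.2 and 171, were lower at 1 dpn than at 94 dpc, with a log2 change of -1.04 (adjusted p = 0.00737) for the dimmer and -1.23 (adjusted p = 0.0178) for the brighter one. The 5 samples at 94 dpc had TIMP4 signals of 62.5, 34.8, 90.0, 36.8 and 41.0. After birth the lowest, median and highest signals were 6.23, 43.3 and 78.4 at 1 dpn, 10.7, 70.5 and 115 at 28 dpn, and 8.96, 24.2 and 52.5 at 188 dpn. The stages of TIMP4 overlapped as well, and no comparison passed.

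Among 14 activators and inhibitors of matrix turnover, 8 were lower and 1 was higher at 188 dpn than at 94 dpc, against 27.4% and 19.5% of all genes. The matricellular protein THBS2 fell by 3.49 ± 0.48 (SE, adjusted p = 3.1e-06), and its relative THBS1 fell by 2.61 ± 0.42 (SE, adjusted p = 2.7e-05). SPOCK3, a testican, fell by 2.55 ± 0.29 (SE, adjusted p = 1.7e-07), and SERPINE2, a serine protease inhibitor, fell by 2.27 ± 0.28 (SE, adjusted p = 8.1e-07). CTSK, a collagen-cleaving cathepsin, fell by 1.51 ± 0.19 (SE, adjusted p = 4.8e-06) at 1 dpn relative to 94 dpc.

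Most of the enzymes and chaperones that fold, modify and crosslink collagen were lower at 188 dpn than at 94 dpc. Of 16 measured, 8 were lower and 1 higher at 1 dpn than at 94 dpc, against 19.4% and 13.7% of all genes. At 188 dpn, 10 were lower and 0 higher than at 28 dpn, against 12.5% and 5.78%, and 13 were lower and 2 higher than at 94 dpc, against 27.4% and 19.5%. At 188 dpn relative to 94 dpc, P3H4, a partner of collagen-modifying enzymes, fell by 3.63 ± 0.47 (SE, adjusted p = 1.3e-06). FKBP10, a collagen chaperone of the endoplasmic reticulum, fell by 3.37 ± 0.29 (SE, adjusted p = 3.3e-09). BMP1, which removes the C-terminal propeptide of procollagens, fell by 2.73 ± 0.25 (SE, adjusted p = 8.0e-09), and CRTAP, a subunit of the prolyl hydroxylase complex, fell by 2.34 ± 0.16 (SE, adjusted p = 1.4e-10). SERPINH1, the collagen-specific chaperone, fell by 1.83 ± 0.29 (SE, adjusted p = 6.1e-05) at 1 dpn relative to 94 dpc. The 2 that rose at 188 dpn relative to 94 dpc were MIA2, which helps export large cargo from the endoplasmic reticulum (1.02 ± 0.19, SE, adjusted p = 1.2e-04), and TMEM38B, an ion channel there (adjusted p = 0.0399). The TMEM38B call was lost without any 1 of replicates 1, 2, 4 and 5 at 94 dpc or 3, 4 and 5 at 188 dpn (adjusted p = 0.0534 to 0.124).

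Transforming growth factor beta signalling, which induces many collagen genes, was measured by 8 genes, of which 4 were lower and 1 higher at 188 dpn than at 94 dpc, against 27.4% and 19.5% of all genes. The ligand TGFB3 fell by 2.55 ± 0.28 (SE, adjusted p = 1.4e-07), the ligand TGFB1 fell by 1.25 ± 0.21 (SE, adjusted p = 4.2e-05), and the corepressor TGIF1 fell by 1.60 ± 0.28 (SE, adjusted p = 5.6e-05). SMAD4, the shared signal mediator, rose by 0.81 ± 0.20 (SE, adjusted p = 0.00223).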

How the data were processed

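The deposited values are probe set signals of Affymetrix arrays, that is, intensity on a linear scale, 1 table column per sample. Per the labels' protocols, total RNA (TRI Reagent, then a DNase step and columns) was converted to biotin-labelled cRNA for hybridisation. The submitters' processing notes name GCOS 1.1.1 without its role, and the summarisation method is not given in the sources used here. The mean signal of each array after trimming 2% at both ends was 500.1 to 500.2, so the arrays had been scaled to a common mean by the authors before the values were deposited. No column was without a sample (0 columns).

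From these, log2(signal + 16) was taken, so that fold changes of low signals are understated, and 23999 probe sets were tested after leaving out 124 controls of 24123. limma 3.58.1 in R 4.3.3 fitted 1 mean per stage over all 23 samples. A gene with several probe sets was represented by that of highest mean log2(signal + 16). Calls used Benjamini-Hochberg adjusted p under 0.05 over all 23999. Every adjusted p is from that model, except those given for an alternative, which are from the altered fit. Figures were drawn with Python 3.11.15, pandas 2.3.3 and matplotlib 3.10.9. The procedure was tested on simulated data. The number of arrays limits precision.

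The platform annotation gave 1 symbol to 10069 probe sets, several to 198 and none to 13732, and the 6765 genes are those with a single symbol. All 46 members matched the RefSeq gene table of Sscrofa11.1, which was used for names only. The members and gene lists were chosen with earlier results of these data known. Values by sample are given for the called, brighter members with the largest range of stage means in each family (up to 6 collagens, up to 4 in the other families) and for all TIMPs. Up to 4 called genes with the largest change were named per list and comparison. PECAM1, CD3E, CTSS and genes that alone moved against their list were named after their values were seen. Replicate numbers follow the order of the samples and pair nothing. Alternatives covered normalization, pseudocount, a filter on dim probe sets, the samples and variance model of the fit, RNA quality, the choice of probe set and leaving out each sample.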

Additional observations from a re-analysis of the deposited data

Results flagged for a closer look

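In 84 groups of samples, 21 genes at 4 stages, the highest or lowest sample was compared with the rest by its gap over the range (Dixon's criterion), and 5 groups had a sample that stood apart. Chance alone gives about 1 in 20 such groups. COL15A1 had a signal of 14226 in replicate 3 at 94 dpc, against 9297 to 9594 in the other samples of that stage. COL15A1 also had 7783 in replicate 3 at 28 dpn, against 5632 to 6328 in the others. COL5A2 had 46.7 in replicate 2 at 28 dpn, against 113.1 to 165.4 in the others. COL6A3 had 16173 in replicate 1 at 94 dpc, against 18636 to 19318 in the others. MMP14 had 119.9 in replicate 4 at 1 dpn, a sample of low GAPDH ratio, against 243.9 to 348.7 in the others.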

How the results depend on the processing

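Of 88 called member results, 56 passed under every alternative that left them to test, and none reversed. Single other probe sets were not among the alternatives. They gave the opposite call for COL5A1 at 1 dpn relative to 94 dpc and for ITGA2 at 188 dpn relative to 94 dpc. Of 210 called results of the gene lists, 131 passed under every alternative that left them to test, and 1 reversed. This was LOXL4, a lysyl oxidase, with a log2 change of -0.51 at 1 dpn relative to 94 dpc. With the mean of all its probe sets the change was 0.28, and the cause was not tested. The count of members called at 28 dpn relative to 1 dpn was 8, against 3 without the samples of low GAPDH ratio and 3 with that ratio as a covariate; the cause was not tested. Leaving out 1 sample at a time gave 25 to 32 members for any stage difference, 15 to 19 for 1 dpn against 94 dpc, 7 to 10 for 28 dpn against 1 dpn, 14 to 18 for 188 dpn against 28 dpn, 16 to 22 for 28 dpn against 94 dpc, and 23 to 27 for 188 dpn against 94 dpc. Of the 88 member calls, 19 were lost with arrays centred on their medians, 19 in at least 1 of the fits that left out a sample, 11 with the mean of all probe sets, and 9 each with quantile normalization, with only the stages compared in the fit, without the samples of low GAPDH ratio and with that ratio as a covariate. Each of the other alternatives lost 0 or 1, with 71 of the 88 left to test after the filter on dim probe sets. Centring made lower calls 76.9% of the members called at 1 dpn relative to 94 dpc (94.4% as deposited), 54.6% at 28 dpn relative to 1 dpn (37.5%) and 57.9% at 28 dpn relative to 94 dpc (89.5%). Over all called genes the share lower at 1 dpn relative to 94 dpc was 58.7% with the deposited scaling, 47.3% under quantile normalization and 33.3% when centred, and centring moved it to 40.2% at 188 dpn relative to 94 dpc (58.5% as deposited), 33.6% at 28 dpn relative to 94 dpc (54.2%) and 56.1% at 188 dpn relative to 28 dpn (68.4%). No paired analysis was possible because the labels give no replicate numbers shared between stages. Detection calls were not used, so signals near background limit the 19 dim members.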
